A study of Mus musculus with 12 samples.

Results

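Genes that mark the first steps of B lymphocyte development were followed across mouse blood stem and progenitor cells in which 1 or both alleles of Erg had been deleted. Erg encodes a transcription factor of the ETS family. The genes are Vpreb1, Igll1, Cd79a, Pax5, Ebf1, Cd24a and Bank1, taken by gene symbol from the annotated probe sets of an expression array, 7 of 9984 genes with a value. Each had 1 probe set, and no filter on dim values was applied, so all 7 were measured in each of the 12 arrays. The genes were selected on measured differences in multipotent progenitors (MPPs) and between the control groups, with Vpreb1 and Igll1 known to be low without Erg in MPPs. Their values in MPPs, and between the control groups that share those arrays, are therefore given as a description, with no test. Only the comparison within hematopoietic stem cells (HSCs) was tested. It compares none of the MPP arrays, although all 12 arrays share in the estimate of the spread. Its Erg +/+ arrays also belong to the comparison of the control groups, so this test is not fully separate from the selection.

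All cells came from bone marrow of male mice on a C57Bl/6 background, were enriched for c-Kit and sorted, and each group holds 3 arrays. HSCs were gated as Lineage-, CD48-, Sca-1+, CD150+ and c-Kit+. They came from Erg +/+ mice and from Erg +/- mice, which carry 1 deleted allele in every cell because a general Cre deleter line made it. These Erg +/- samples are titled knock-outs, whereas their genotype label reads Erg +/-. MPPs were CD150-negative by the sorting label and came from Erg fl/fl mice, which carry no Cre, or from Erg -/- mice. In the latter the floxed exon 11, which encodes the DNA-binding domain, was removed by Mx1-Cre, a recombinase induced by interferon and active in many tissues. Another label of the same MPP samples repeats the HSC gate. Both MPP groups were injected 5 times with pIpC (200 µl at 1.5 mg/ml), an RNA that induces interferon. Sorting followed 2 weeks after the first injection. The labels of the HSC groups mention no pIpC. Mx1-Cre and Erg loss cannot be told apart in MPPs, and pIpC, the floxed alleles and cell type cannot be told apart between the control groups. Ages are not given in the sources used here, nor whether the samples of a group came from separate mice, so p-values measure only the spread between these samples.

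Before a B cell progenitor has made a light chain, its new immunoglobulin heavy chain is paired with a surrogate light chain built from the VpreB and lambda5 proteins, encoded by Vpreb1 and Igll1. The complex signals through Cd79a and its partner Cd79b and forms the pre-B cell receptor. Ebf1 and Pax5 encode the transcription factors that start and then fix the B-lineage programme, and Ebf1 acts on the surrogate light chain genes and on Cd79a. Cd24a encodes a glycosylated surface protein of many immature blood cells, and Bank1 an adaptor of B cell receptor signalling. Low levels of some of these transcripts in uncommitted progenitors are known as lineage priming.

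Igll1 and Vpreb1 are neighbours, with 0 protein-coding genes between them in the RefSeq table of assembly GRCm38.p6. The 250 bases before each annotated start are shown for the 6 members with an entry in the table, because these genes differed in size and direction in Erg -/- MPPs. Ebf1 has 2 annotated starts, and Cd24a has no entry. The regions, on RefSeq assembly GRCm38.p6, are chr16:16869256-16869505 for Vpreb1, chr16:16863986-16864235 for Igll1, chr7:24897247-24897496 for Cd79a, chr11:44617850-44618099 and chr11:44619978-44620227 for Ebf1, chr4:44710695-44710944 for Pax5 and chr3:136326067-136326316 for Bank1. Cd79a and Ebf1 lie on the plus strand and the others on the minus strand. Each reads from 5′ to 3′ towards the gene, and capitals mark every match to the motifs searched.
Vpreb1: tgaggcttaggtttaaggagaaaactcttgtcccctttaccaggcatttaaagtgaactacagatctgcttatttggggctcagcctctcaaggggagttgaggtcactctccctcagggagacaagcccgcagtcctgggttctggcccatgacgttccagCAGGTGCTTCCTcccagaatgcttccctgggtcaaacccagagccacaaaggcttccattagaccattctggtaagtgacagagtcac
Igll1: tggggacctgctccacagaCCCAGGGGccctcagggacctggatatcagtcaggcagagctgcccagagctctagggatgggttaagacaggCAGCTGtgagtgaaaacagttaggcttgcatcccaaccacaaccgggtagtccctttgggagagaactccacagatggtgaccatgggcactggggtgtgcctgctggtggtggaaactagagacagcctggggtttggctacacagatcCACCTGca
Cd79a: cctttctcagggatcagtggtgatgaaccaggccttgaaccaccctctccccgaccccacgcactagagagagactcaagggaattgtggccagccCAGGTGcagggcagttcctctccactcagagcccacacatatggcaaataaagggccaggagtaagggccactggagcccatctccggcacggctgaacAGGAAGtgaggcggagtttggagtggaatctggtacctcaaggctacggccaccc
Ebf1 start 1: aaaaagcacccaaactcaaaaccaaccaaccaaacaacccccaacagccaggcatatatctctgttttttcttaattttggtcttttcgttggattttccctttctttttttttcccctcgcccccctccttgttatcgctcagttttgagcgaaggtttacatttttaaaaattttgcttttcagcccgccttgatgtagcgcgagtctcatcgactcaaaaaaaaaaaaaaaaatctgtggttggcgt
Ebf1 start 2: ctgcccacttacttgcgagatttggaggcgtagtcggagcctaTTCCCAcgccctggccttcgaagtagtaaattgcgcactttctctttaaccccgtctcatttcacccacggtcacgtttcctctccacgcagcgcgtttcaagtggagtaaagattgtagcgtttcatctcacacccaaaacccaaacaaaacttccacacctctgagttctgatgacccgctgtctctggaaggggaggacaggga
Pax5: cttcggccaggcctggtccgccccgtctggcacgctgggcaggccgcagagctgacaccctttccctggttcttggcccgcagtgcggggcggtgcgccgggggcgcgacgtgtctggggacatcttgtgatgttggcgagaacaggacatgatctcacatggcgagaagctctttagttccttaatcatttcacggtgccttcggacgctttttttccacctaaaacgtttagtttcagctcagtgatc
Bank1: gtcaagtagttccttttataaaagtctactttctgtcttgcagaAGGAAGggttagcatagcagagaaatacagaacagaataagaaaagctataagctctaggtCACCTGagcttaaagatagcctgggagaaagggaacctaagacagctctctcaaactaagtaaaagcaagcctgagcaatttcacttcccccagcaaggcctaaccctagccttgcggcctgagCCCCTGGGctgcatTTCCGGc

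The motifs were searched on both strands from 250 bases before to 50 after the start, and no 2 matches overlap in these 7 windows. An ETS motif, CCGGAA, is present in the Bank1 window alone among these 7, starting at position -7, and in 14.9% of all 32851 promoters of the table. A looser ETS-like motif, AGGAAG, lies at -82 in Vpreb1, at -55 in Cd79a and at -206 and 26 in Bank1, the last beyond the printed bases, and in 35.4% of all promoters. The EBF core, CCCNNGGG, was found at -231 in Igll1 and at -21 in Bank1, against 13.7% of all promoters. An E-box, CAGGTG, occurs at -88 in Vpreb1 directly beside the ETS-like motif, at -8 in Igll1, at -154 in Cd79a and at -145 in Bank1, and in 20.2% of all promoters. The other E-box form, CAGCTG, is found at -158 in Igll1 and in 16.3% of all promoters. The window of Pax5 and the first of 2 for Ebf1 hold 0 matches, and the second Ebf1 window holds the Ikaros motif TGGGAA, as 25.6% of all promoters do. These matches describe the letters and show no binding.

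Vpreb1 has a close copy, Vpreb2, which is not analysed here. Their promoter windows align over 156 bases with 3 mismatches (98.1% identical), starting at -106 in Vpreb1. The 106 bases of Vpreb2 that match the last part of the Vpreb1 sequence above, chr16:17980315-17980420 on the plus strand, are shown with the 2 mismatches in capitals.
Vpreb2: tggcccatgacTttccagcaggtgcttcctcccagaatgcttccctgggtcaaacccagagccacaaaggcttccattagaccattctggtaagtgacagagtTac
Whether the Vpreb1 probe set separates the transcripts of the copies was not tested, so its values are uncertain between them.

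The 2 surrogate light chain genes had the most negative differences of the 7 in Erg -/- MPPs. Vpreb1 read 9.64, 10.09 and 10.61 on the log2 scale in the 3 Erg fl/fl MPP arrays and 5.35, 5.41 and 5.32 in the 3 Erg -/- arrays. The groups lay wholly apart, and the Erg -/- arrays were nearly identical to each other. The means were 10.11 ± 0.485 and 5.36 ± 0.0437 (SD, n = 3 each), a 26.9-fold difference. The Erg -/- values lie below the medians of those arrays (5.49 to 5.53). How far background signal sets them, and with them the fold and the small SD, was not tested. Of all 9984 genes Vpreb1 had the most negative difference in MPPs, ahead of Mcpt8, a basophil protease gene (11.6-fold), and Nkg7, a gene of cytotoxic granules (8.27-fold). The samples are bulk RNA, in which fewer cells expressing a gene and less of its RNA per cell cannot be told apart.

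Igll1 read 7.95, 7.77 and 8.04 in Erg fl/fl MPPs and 5.95, 6.05 and 6.11 in Erg -/- MPPs. Again the groups lay apart, with little spread within either. The means were 7.92 ± 0.138 and 6.04 ± 0.08 (SD, n = 3 each), a 3.69-fold difference and the ninth most negative of all genes, between AW112010 (3.89-fold) and the small nucleolar RNA gene Snord53 (3.4-fold).

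**Figure D1:**
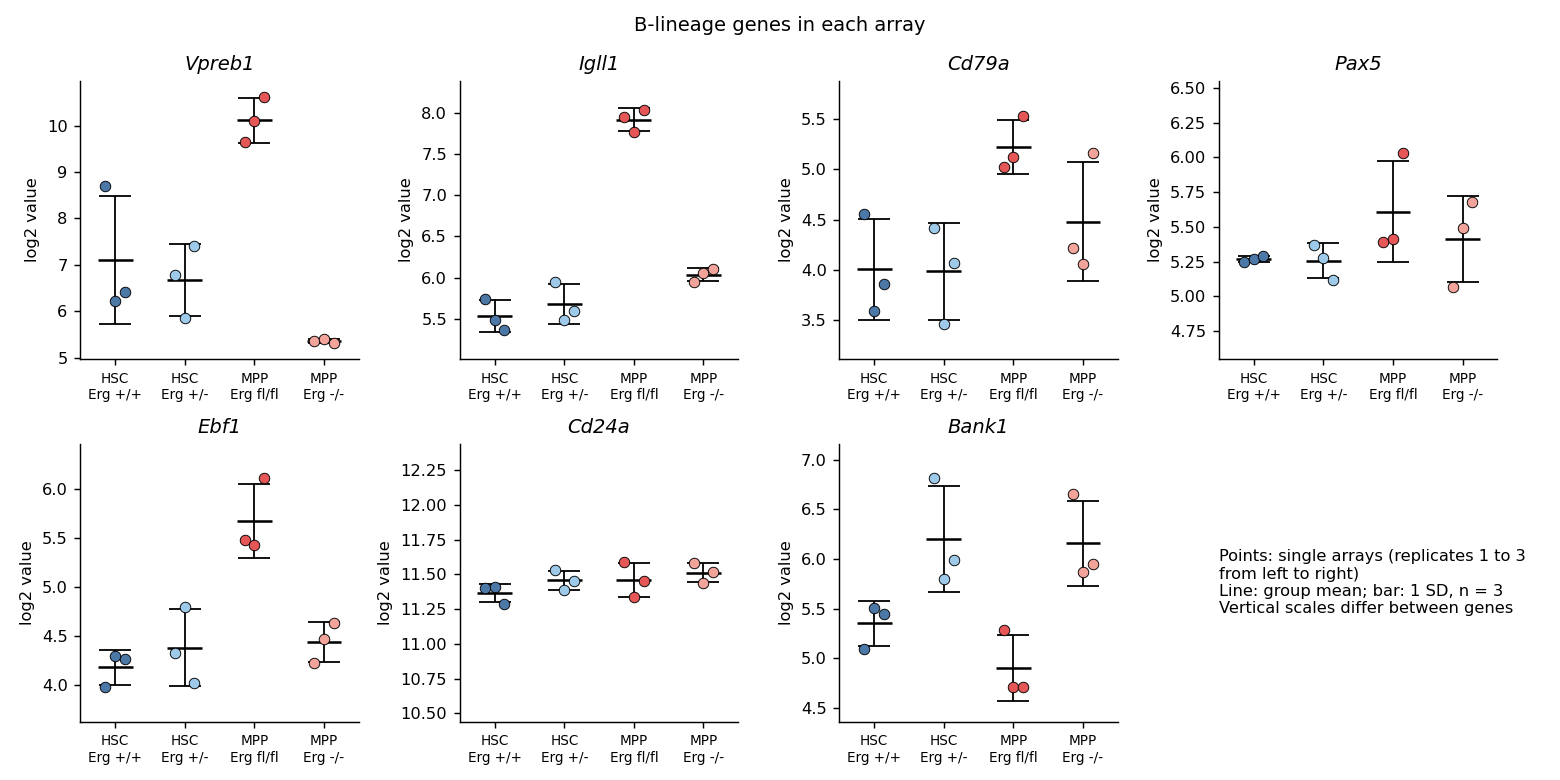
The log2 value (vertical axis) of each of the 7 genes in every array, by group (horizontal axis), with the group mean and 1 SD (n = 3). Vpreb1, Igll1 and Ebf1 are highest in Erg fl/fl MPPs, Bank1 is lowest there, and Cd24a stays between 11.29 and 11.59.

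Of the transcription factor genes, Ebf1 was lower in Erg -/- MPPs and Pax5 overlapped. Ebf1 read 5.48, 5.43 and 6.11 in Erg fl/fl MPPs and 4.23, 4.47 and 4.63 in Erg -/- MPPs. The arrays did not overlap, although Erg fl/fl replicate 3 stood above the other control arrays. The means, 5.67 ± 0.381 and 4.44 ± 0.198 (SD, n = 3 each), differ 2.34-fold. Pax5 read 5.39, 5.41 and 6.03 in Erg fl/fl MPPs and 5.07, 5.49 and 5.68 in Erg -/- MPPs. The ranges of Pax5 overlap, and the same replicate 3 was its highest control array. Its mean difference was -0.19 log2 units, and between -0.329 and 0.0142 with 1 MPP array left out.

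Cd79a, the signalling chain, was lower on average in Erg -/- MPPs with overlapping arrays. It read 5.02, 5.12 and 5.53 in Erg fl/fl MPPs and 4.22, 4.06 and 5.16 in Erg -/- MPPs. Replicate 3 of the Erg -/- group lay within the control range, and the other 2 below it. The mean difference was -0.74 log2 units, with SDs of 0.268 and 0.595 (n = 3 each), and it ranged from -1.08 to -0.528 with 1 MPP array left out.

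Bank1, whose mean lies below the median of all genes as that of Pax5 does, differed in the opposite direction. It read 5.28, 4.71 and 4.71 in Erg fl/fl MPPs and 6.65, 5.87 and 5.95 in Erg -/- MPPs. All Erg -/- arrays lay above all controls. The means were 4.9 ± 0.333 and 6.15 ± 0.43 (SD, n = 3 each), a 2.39-fold difference and the 14th most positive of all genes. Cd24a read 11.59, 11.34 and 11.45 in Erg fl/fl MPPs and 11.58, 11.44 and 11.52 in Erg -/- MPPs, a mean difference of 0.05. The members were thus not uniform: 3 of the 7 lay wholly lower in Erg -/- MPPs, 1 wholly higher, and 3 overlapped. Over all genes 10.5% lay wholly apart, 6.1% lower and 4.36% higher, values read here only as background because this contrast helped to choose the members. The median difference of the 7 was -0.74 log2 units, against -0.004 over all genes.

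In HSCs, none of the 7 genes changed with the loss of 1 Erg allele by limma at an adjusted p under 0.05 (0 of 7 called, where 0.02% of all genes were, 0.01% higher and 0.01% lower). At an unadjusted p under 0.05 there was 1 of 7, Bank1, where 6.32% of all genes passed. Exact permutation tests within HSCs, two-sided, gave p from 0.1 to 1 for the 7 genes, and 3 arrays against 3 cannot give less than 0.1.

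Bank1 had the largest difference of the 7 in HSCs. It read 5.09, 5.51 and 5.45 in Erg +/+ HSCs and 6.81, 5.8 and 5.99 in Erg +/- HSCs. The groups did not overlap, which held for 10.4% of all genes, 6.06% in that direction. It was the only one of the 7 genes without overlap. The difference was 0.85 log2 units (SE 0.291, 95% interval 0.22 to 1.48), 1.8-fold, and did not pass over all genes (limma, adjusted p = 0.712, and 0.482 to 0.943 over the alternatives). Without Erg +/- replicate 1, its highest array, the difference was smallest at 0.547. Markers of other cells also differed between these HSC groups. The mean of 7 measured erythroid genes was 5.71 to 6.14 in Erg +/+ and 6.67 to 6.89 in Erg +/- HSCs, with 0 of 7 called. That of 5 endothelial and stromal genes was 6.43 to 7.15 and 5.58 to 5.79, and 1 of the 5, Sparc, fell by 2.08 (limma, adjusted p = 0.0401), a call not made in a fit on only the arrays compared, where 0 genes passed. Their part in the Bank1 difference was not tested. Bank1 was the member whose arrays lay apart in the same direction in both populations.

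Vpreb1 varied more between HSC arrays than between the genotypes. It read 8.69, 6.21 and 6.42 in Erg +/+ HSCs and 6.77, 5.86 and 7.4 in Erg +/- HSCs. Erg +/+ replicate 1 stood above every other HSC array, and the groups overlapped. The difference was -0.43 log2 units (95% interval -1.64 to 0.78, limma, adjusted p = 0.968), and it turned to 0.363 without Erg +/+ replicate 1. That array also had the highest Cd79a and the lowest Bank1 of the HSC arrays. Over the Erg +/+ arrays the mean of the 5 measured endothelial and stromal markers ranged from 6.43 to 7.15. Of the measured markers of B cells and their precursors, Cr2 read 5.01, 4.17 and 4.38 in Erg +/+ HSCs. Cxcr5 read 4.39, 3.95 and 3.49, Blnk 4.92, 4.59 and 4.73, and Ighm 2.68, 1.76 and 2.07. Erg +/+ replicate 1 was thus the highest of its group for these genes, but not for Fcer2a (4.25, 4.02 and 5.71). Whether other cells in the sort of Erg +/+ replicate 1 take part in its Vpreb1 value was not tested.

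Igll1 read 5.74, 5.49 and 5.36 in Erg +/+ HSCs and 5.95, 5.48 and 5.6 in Erg +/- HSCs, a difference of 0.15 (95% interval -0.22 to 0.53). Ebf1 read 3.98, 4.3 and 4.27 against 4.33, 4.8 and 4.02, a difference of 0.2 (-0.32 to 0.72) that was -0.0087 without Erg +/- replicate 2. Cd79a read 4.56, 3.59 and 3.86 against 4.42, 3.46 and 4.07, and differed by -0.02 (-0.76 to 0.72). All 3 genes overlapped between the genotypes. Pax5 lay between 5.12 and 5.37 in all 6 HSC arrays, with a difference of -0.02 (-0.47 to 0.44). Cd24a lay between 11.29 and 11.53, with a difference of 0.09 (-0.22 to 0.4). The intervals are moderated by limma, and adjusted p was 0.963 to 0.997 for these 5 genes. For Igll1, Pax5 and Cd24a the intervals stay within 0.53 log2 units of 0 in either direction. That of Vpreb1 reaches -1.64, so a sizeable fall there was not detectable with 3 arrays.

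**Figure D2:**
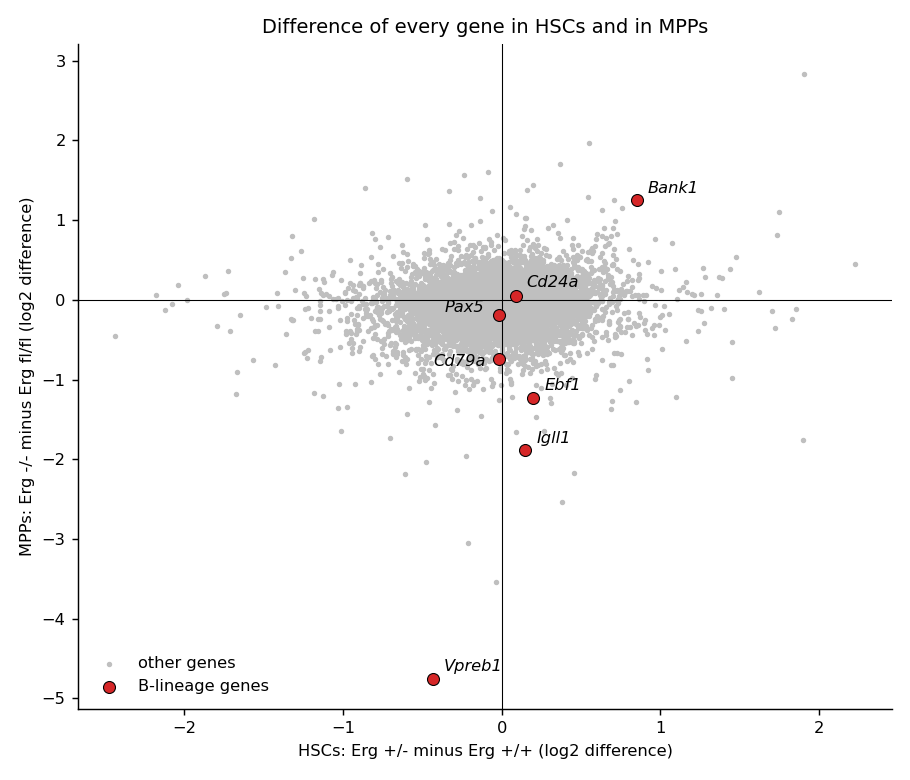
Difference between genotypes for every gene (grey) and the 7 members (red), in HSCs (horizontal axis, Erg +/- minus Erg +/+) and in MPPs (vertical axis, Erg -/- minus Erg fl/fl), in log2 units. Vpreb1 lies lowest in MPPs at -4.75, and Bank1 is positive on both axes, at 0.85 and 1.25.

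Between the control groups, 6 of the 7 genes had higher means in Erg fl/fl MPPs than in Erg +/+ HSCs, and Bank1 had a lower one. This comparison shares the Erg fl/fl arrays with the MPP comparison and the Erg +/+ arrays with the HSC comparison. Vpreb1 was 8.02-fold higher, and it was 3.8 log2 units higher in place of 3 without Erg +/+ replicate 1. Igll1 was 5.25-fold, Ebf1 2.8-fold and Cd79a 2.32-fold higher. Pax5 differed by 0.34 and Cd24a by 0.09 log2 units. Bank1 stood at -0.45. The arrays lay wholly higher for 5 genes, all but Cd24a and Bank1, as they did for 18.5% of all genes, and nothing is read from that count. The median difference over all genes was 0.122 log2 units here, so values are best read against that shift.

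The order of the 4 groups differed between the members. For Vpreb1, Erg -/- MPPs were lowest (5.36), below all 6 HSC arrays and 1.75 log2 units under the Erg +/+ HSC mean. Then came Erg +/- HSCs (6.68) and Erg +/+ HSCs (7.11), which overlapped, and Erg fl/fl MPPs (10.11), which stood apart. For Igll1 the HSC groups were lowest and overlapped (5.53 and 5.68). Erg -/- MPPs (6.04) lay above all 6 HSC arrays by a margin too small to show at 2 decimals, as the lowest of them and the highest HSC array both read 5.95. They were 0.51 above the Erg +/+ HSC mean, and Erg fl/fl MPPs (7.92) lay apart above them.

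For Ebf1 the HSC groups and Erg -/- MPPs overlapped (4.18, 4.38 and 4.44), and Erg fl/fl MPPs stood above them (5.67). Each step of the order overlapped for Cd79a, Pax5 and Cd24a. For Bank1, Erg fl/fl MPPs (4.9) and Erg +/+ HSCs (5.35) overlapped at the low end, and Erg -/- MPPs (6.15) and Erg +/- HSCs (6.2) overlapped at the high end. The low pair and the high pair did not overlap. The means of Vpreb1 were also split by genotype, in the opposite direction, but its HSC groups overlapped. The MPP values in these orders, and those of the Erg +/+ HSCs, took part in choosing the members.

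The members were also set against each other array by array, as a description over 12 arrays that share 4 groups. Vpreb1 and Igll1 had a Pearson r of 0.805 and a Spearman rho of 0.364, as the 3 Erg fl/fl MPP arrays were highest for both, whereas the 3 Erg -/- MPP arrays were lowest for Vpreb1 and above the HSC arrays for Igll1. Ebf1 and Igll1 had r = 0.903 and rho = 0.65. Vpreb1 and Bank1 had r = -0.754 and rho = -0.692. After each group mean was subtracted, the values for these pairs were 0.575, -0.0446 and -0.251. Within groups Igll1 and Cd79a (0.727) and Pax5 and Ebf1 (0.756) varied most alike, and Cd24a and Bank1 followed (0.709). The likeness of Ebf1 and Igll1 thus lay between the groups and not within them.

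**Figure D3:**
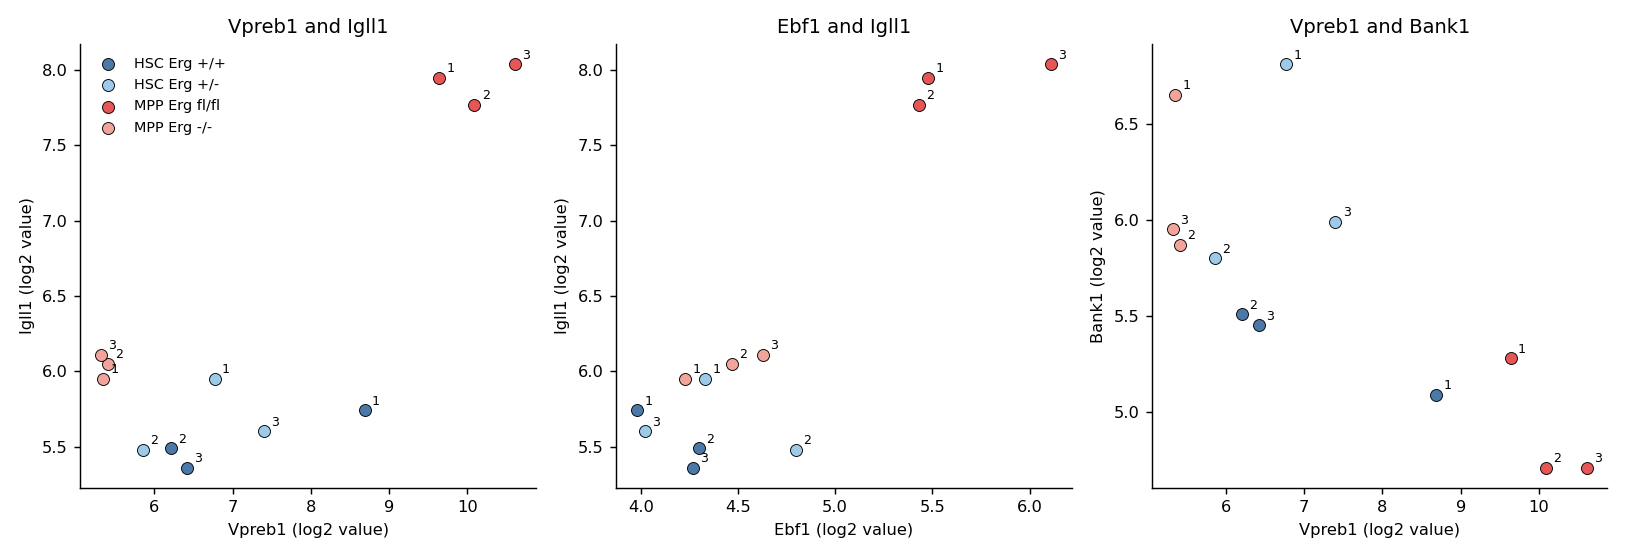
Log2 values of 3 pairs of members in the 12 arrays, coloured by group, with the replicate number beside each point. The 3 Erg fl/fl MPP arrays lie apart at the upper right for Vpreb1 with Igll1 and for Ebf1 with Igll1, and at the lower right for Vpreb1 with Bank1, next to Erg +/+ HSC replicate 1.

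Genes with the most similar profile were ranked by Pearson r over the 12 arrays, again as a description that follows the 4 groups. Nearest to Vpreb1 were Nlrc3 (r = 0.868), Cep162 (0.846), Serpinb1a (0.824), Itpr2 (0.821) and Igll1 (0.805). Nlrc3 encodes a regulatory protein of innate immunity, Serpinb1a an inhibitor of neutrophil proteases and Itpr2 a calcium release channel. Nearest to Igll1 were Mcpt8 (0.962), Nlrc3 (0.922), Tcim (0.908), Ldlrad4 (0.906) and Ebf1 (0.903). Over the 6 MPP arrays alone, Nlrc3 was among the nearest to both, with r = 0.996 for Vpreb1 and 0.998 for Igll1. Its difference between Erg -/- and Erg fl/fl MPPs was -0.995 log2 units.

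In that set of 6 arrays Rnf180 (0.999), Igll1 (0.992), Hnmt (0.987) and Ifitm1 (0.973) were also near Vpreb1, and Vpreb1 (0.992), Rnf180 (0.988), Ifitm1 (0.988) and Nkg7 (0.976) were near Igll1. With 6 arrays in 2 groups, such values mostly say that the groups lie apart. For Ebf1 the nearest genes over 12 arrays were Gimap7, a lymphocyte GTPase gene (0.927), Plcxd1 (0.92) and Igll1 (0.903). For Bank1 they were Trib2, a pseudokinase gene (0.931), C1qb, a complement gene (0.826), and Mettl24 (0.82). Trib2 stood at 0.61 log2 units in Erg -/- MPPs and 0.58 in Erg +/- HSCs. Cd79a was nearest to Rln3 (0.903), Pigyl (0.902) and Klrc1 (0.9), Pax5 to Pth (0.901), Prag1 (0.893) and Stkld1 (0.893), and Cd24a to Mre11a (0.839), Hoxd13 (0.825) and Thumpd1 (0.816).

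None of the other B-lineage genes measured was called with the loss of Erg in either population. Of 78 other genes in 4 lists, 27 have a value here, and in Erg -/- MPPs 0 of the 27 passed (limma, 4 at an unadjusted p under 0.05, where 0.0801% and 4.79% of all genes were). Their median difference was 0.08 log2 units, with 15 positive and 12 negative. In Erg +/- HSCs 0 of 27 passed, 5 at an unadjusted p under 0.05, where 0.02% and 6.32% of all genes were, with a median of -0.01. Between the controls 4 of 27 were higher in MPPs and 0 lower, where 1.28% of all genes were called, 0.651% higher and 0.631% lower. At an unadjusted p under 0.05 there were 8 of 27, where 22.3% of all genes passed.

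The pre-B cell receptor list has 6 measured genes, and 0 passed in any of the 3 comparisons. Ighm, the heavy chain constant region gene, read 3.21, 2.81 and 2.77 in Erg fl/fl MPPs and 3.65, 1.85 and 5.61 in Erg -/- MPPs. Its Erg -/- arrays spread widely around the controls, and the difference of 0.78 did not pass (limma, adjusted p = 0.998). Blnk, an adaptor downstream of the receptor, differed by 0.12 in MPPs, and stood 0.85 higher in control MPPs than in control HSCs without passing (limma, adjusted p = 0.0983). The kinase gene Btk stood at -0.22 in Erg -/- MPPs and at 0.49 in Erg +/- HSCs, and the kinase gene Syk at -0.75 in the latter (limma, adjusted p = 0.789 for both in HSCs).

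Of 9 measured transcription factor genes, 2 were higher in control MPPs than in control HSCs and 0 passed with Erg loss. Irf8, a factor of myeloid and lymphoid progenitors, rose from 5.62 ± 0.398 to 6.67 ± 0.167 (limma, adjusted p = 0.0364). Lef1, a factor of lymphoid progenitors, rose from 4.93 ± 0.297 to 5.83 ± 0.167 (adjusted p = 0.0369; SD, n = 3 each). In Erg -/- MPPs the arrays of both lay wholly below the controls, at -0.52 for Irf8 and -0.29 for Lef1, as for 6.1% of all genes. Neither passed (limma, adjusted p = 0.998 for both), and the nearest arrays of Lef1 read 5.63 and 5.65. Gfi1, of the same list, lay wholly above the controls there at 0.21, as 4.36% of all genes did. Bach2, a transcriptional repressor expressed in B cells, stood at 0.42 in Erg -/- MPPs, and Id2, an inhibitor of E proteins, at -0.44 in Erg +/- HSCs. Both calls between the controls were lost without Erg +/+ replicate 1 (adjusted p = 0.0851 for Irf8, 0.0921 for Lef1) and without Erg fl/fl replicate 2 (0.0771 and 0.124) or 3 (0.114 for both), and in a fit on only the arrays compared (0.0864 and 0.0913). Among further settings, that of Irf8 was also lost without Erg +/+ replicate 2 (0.0587) or Erg fl/fl replicate 1 (0.0679), that of Lef1 without Erg +/+ replicate 3 (0.0667) or with repeated quantile normalisation (0.0627). Median centring lost both (0.0639 and 0.0662).

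Early lymphoid genes gave 4 measured members. Flt3, the cytokine receptor gene of lymphoid-primed progenitors, was 5.94-fold higher in control MPPs than in control HSCs (limma, adjusted p = 0.000242). In Erg -/- MPPs it read 9.29, 9.65 and 9.04, against 9.05, 8.7 and 8.65 in Erg fl/fl MPPs, a difference of 0.52 that did not pass. In Erg +/- HSCs it stood at -1.33, with an adjusted p of 0.119 by limma. Lax1, a lymphocyte adaptor gene, stood at -0.67 in Erg -/- MPPs and -0.94 in Erg +/- HSCs, and did not pass in either.

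Among 8 measured surface and antigen presentation genes, Cd53, a tetraspanin gene of leukocytes, was 4.3-fold higher in control MPPs (limma, adjusted p = 0.0344). In Erg -/- MPPs it stood at -0.95 and Cd93, a surface receptor gene of early progenitors, at -0.67, with adjusted p of 0.998 and 0.977 by limma. H2-Eb1, a class II antigen presentation gene, stood at -0.67 in Erg +/- HSCs and -0.54 in Erg -/- MPPs, without passing. The Cd53 call between the controls was lost without Erg +/+ replicate 1 or 3 (limma, adjusted p = 0.088 and 0.0763) or Erg fl/fl replicate 1 or 2 (0.0704 and 0.108), and in a fit on only the arrays compared (0.0659). Flt3 remained called in each of its 16 alternatives.

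**Figure D4:**
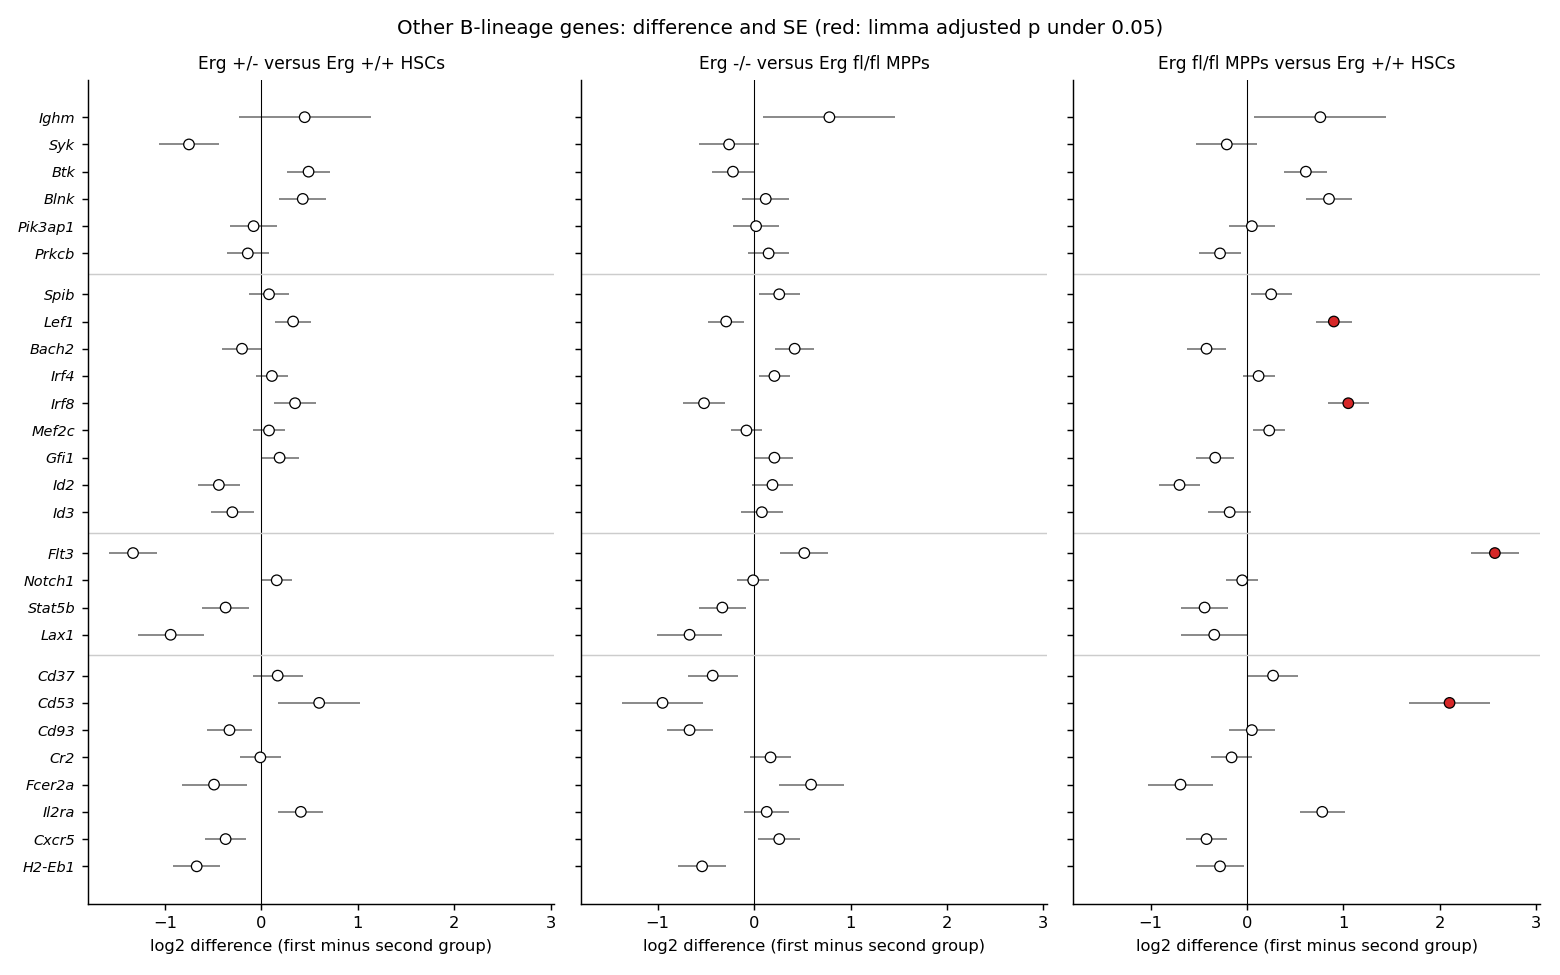
Log2 difference and SE of the 27 other B-lineage genes in the 3 comparisons, in the order of the 4 lists, separated by grey lines. Red points passed limma at an adjusted p under 0.05: 0 in HSCs, 0 in MPPs, and 4 between the controls (Lef1, Irf8, Flt3 and Cd53).

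Markers of the sorted populations and of other cells were read in the same arrays. Mean log2 values of Mmrn1, Tgm2 and Nupr1, 3 measured stem cell genes of 12 listed, ranged from 8.72 to 8.9 in Erg +/+ HSCs, 8.99 to 9.23 in Erg +/- HSCs, 5.53 to 5.9 in Erg fl/fl MPPs and 5.3 to 5.66 in Erg -/- MPPs. The HSC groups did not overlap, and 1 of the 3 genes, Nupr1, stood 1.22 higher in Erg +/- HSCs without passing (limma, adjusted p = 0.0507). Tgm2 averaged 8.98 in both HSC groups and Mmrn1 stood at -0.25, so the higher mean rested on Nupr1. Of 9 listed genes of pro-B and pre-B cells, Blnk and Ighm are measured. Their mean was 3.98 to 4.58 in Erg fl/fl and 4 to 5.57 in Erg -/- MPPs. Ighm is dim, with a mean of 2.93 in Erg fl/fl MPPs, and its Erg -/- arrays read 3.65, 1.85 and 5.61. These 2 genes therefore say little about such cells. Fcer2a, Cr2 and Cxcr5, the 3 measured genes of mature B cells, averaged 3.9 to 3.98 in Erg fl/fl MPPs and, wholly higher, 4.23 to 4.36 in Erg -/- MPPs. In HSCs the range was 4.05 to 4.55 in Erg +/+ and 3.99 to 4.18 in Erg +/-. Fcer2a (0.59) and Cr2 (0.17) lay wholly higher in Erg -/- MPPs, as 4.36% of all genes did, and Cxcr5 (0.26) overlapped. None passed (limma, adjusted p = 0.998 for each).

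Genes of mast cells and basophils had their highest mean in Erg fl/fl MPPs, as the surrogate light chain genes did. The mean of Mcpt8, Ms4a2 and Hdc, 3 measured of 7, was 5.56 to 6.71 in Erg fl/fl MPPs and 4.4 to 4.9 in Erg -/- MPPs. In HSCs it was 4.32 to 4.55. Between the MPP groups 1 of them, Mcpt8, passed (limma, adjusted p = 0.0029). Ms4a2 stood at -0.64 and Hdc at -0.37 in Erg -/- MPPs without passing (limma, adjusted p = 0.998 for both), so the difference of the mean rested mostly on Mcpt8. Mcpt8 averaged 8.5 ± 1.11 in Erg fl/fl and 4.96 ± 0.284 in Erg -/- MPPs (SD, n = 3 each). Erythroid genes, 7 measured of 11, averaged 6.01 to 6.52 in Erg fl/fl and 6.41 to 6.97 in Erg -/- MPPs. The 2 measured genes of plasmacytoid dendritic cells averaged 5.5 to 5.72 and 5.34 to 5.76, and those of T and NK cells 4.49 to 4.75 and 4.76 to 4.84. The megakaryocyte gene Itga2b lay at 6.33 to 6.62 and 6.25 to 6.38, and the 5 endothelial and stromal genes averaged 5.93 to 6.27 and 5.82 to 6.13. Genes of neutrophils and monocytes are not analysed here. The part of other cell types in the differences of the 7 members was not tested.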

How the data were processed

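RNA of 12 sorted samples (20 ng each, amplified, with 2.5 µg of cDNA labelled) was hybridised to Affymetrix gene arrays. The deposited values are log2 probe-set levels between 0.939 and 13.4. RMA and affy are named, without versions, by the submitters' processing notes. RMA compresses folds of dim genes, and the sources do not say whether the 12 arrays were normalised in 1 run. Array medians were 5.41 to 5.54, interquartile ranges 2.83 to 2.99 in HSC and 2.5 to 2.84 in MPP arrays, and correlations within groups 0.9528 to 0.9743. Arrays carry no read depth. Their number limits precision.

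Of 18719 probe sets, 10657 have 1 gene symbol, 523 several, and 7539 are unnamed here. Symbols were updated by gene ID (10606 matched), and the probe set with the highest mean stood for each of 9984 genes. One limma model (limma 3.58.1, R 4.3.3) with 4 group means gave all differences, with two-sided tests, Benjamini-Hochberg adjustment over all genes and a threshold of 0.05. The fit was tested on simulated data. Members, lists and the rule for named genes were chosen with earlier results of these data known. The rule takes all members, list genes called in any comparison or else the 2 with the smallest p, and the 3 to 5 genes nearest to each member. Promoters came from RefSeq (6 of 7 members matched). Alternatives are given in the closing section. The targeted gene is not analysed here.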

Additional observations from a re-analysis of the deposited data

How the results depend on the processing

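Under 16 alternatives, 0 of the 7 members was called in HSCs, and 0 of the 27 other genes in HSCs or MPPs. The differences of Vpreb1 (-4.99 to -4.51), Igll1 (-1.96 to -1.81), Ebf1 (-1.35 to -1.01), Cd79a (-1.08 to -0.528) and Bank1 (1.01 to 1.45) in MPPs kept their sign throughout. In HSCs, small differences turned. That of Vpreb1 was 0.363 without the 2 arrays of lowest weight (Erg +/+ HSC and Erg fl/fl MPP replicate 1, chosen after seeing the data), and -0.88 to 0.363 with 1 array left out. That of Cd79a was 0.258 without that pair, 0.0276 with array weights and -0.237 to 0.258 with 1 array left out. With 1 array left out, Ebf1 ranged from -0.0087 to 0.382 and Pax5 from -0.0735 to 0.0532. Cd79a and Ebf1 gave no value under either filter on dim genes, nor Pax5 and Bank1 under the stricter.

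The numbers of genes called overall varied more. In HSCs there were 2, but 7 with the 25th percentile as the floor, 5 with an intensity trend, 1 with the replicate block, 0 with means of probe sets, with only the arrays compared or without the pair, and 1 to 8 with 1 array left out. In MPPs there were 8, but 4 without the pair and 5 to 7 with 1 array left out. Between the controls there were 128, but 60 over all probe sets, 61 with only the arrays compared, 61 without the pair, and 47 to 150 with 1 array left out. Of the other B-lineage genes 4 were called there, but 2 with median centring, 1 with only the arrays compared, 1 without the pair, and 1 to 3 with 1 array left out. Beyond the arrays and genes removed, the cause was not tested. The replicate block left 3 of these 4, as Lef1 was lost (limma, adjusted p = 0.0611). Deviations of same-numbered arrays correlated at -0.0852 to 0.104. The labels do not say whether such arrays were handled together, and the main fit did not treat them as paired. The 3 arrays per group limit what is detectable.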

Other observations

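In some arrays B-lineage transcripts departed from those of their group. Erg fl/fl MPP replicate 3 had the highest Vpreb1 (10.61), Igll1 (8.04), Cd79a (5.53), Ebf1 (6.11) and Pax5 (6.03) of its group. Without it the difference between the MPP groups was -1.01 for Ebf1 and 0.0142 for Pax5. Erg +/+ HSC replicate 1 read 8.69 for Vpreb1, where the other 5 HSC arrays read 5.86 to 7.4, yet its Igll1 (5.74) lay within the HSC range of 5.36 to 5.95. Erg -/- MPP replicate 3 read 5.61 for Ighm, against 1.76 to 3.65 in the other 11 arrays, and it had the highest Cd79a (5.16), Ebf1 (4.63) and Pax5 (5.68) of its group, while its Vpreb1, at 5.32, was the lowest value of all 12 arrays.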
